A study of Mus musculus with 6 samples.

Results

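Genes of nuclear mRNA export were followed in mouse CD4+ T cells with and without a Wtap knockout: Nxt1, Nxf1, Alyref, Thoc1, Thoc2, Thoc3, Thoc5, Thoc6, Thoc7 and Ddx39b. They are 10 of 55177 genes to which the deposited transcripts could be matched. The list was chosen by function when the gene-level fold changes between Wtap KO and WT, the rise of Nxt1 among them, were already known. Values of that contrast are therefore given as a description. Of the 10, Nxt1 rose 2.78-fold in the Wtap KO libraries, and none of the other 9 passed the test at the gene level in either direction.

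There were 6 RNA-seq libraries, 3 labelled wild type (WT) and 3 labelled Wtap KO, all from C57BL/6J CD4+ cells. Per the labels' protocols, which carry the same text for WT and Wtap KO, cells received 1 µM 4' OH-tamoxifen for 24 h to deplete Wtap. They were then activated for 40 to 48 h through CD3 and CD28 (antibodies at 1 and 2.5 µg/mL). Th1 conditions were set by anti-IL-4 at 10 µg/mL and IL-12 at 10 ng/mL, followed by IL-2 at 200 IU/mL and harvest on day 4. The labels omit the promoter behind the tamoxifen-inducible deletion, whether WT cells carried Cre, the deleted part of Wtap and the number of animals. P-values therefore cover the spread among libraries. Sex-linked genes, described below, set only Wtap KO 3 apart as from another animal. Among the other libraries of a group the spread may be technical. Wtap encodes a subunit of the nuclear complex that writes N6-methyladenosine (m6A) on mRNA, and the series asks what its loss does to the T cell transcriptome.

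Export of mRNA starts while the transcript is being made. The TREX complex, built from the THO subunits (the Thoc genes), the RNA helicase DDX39B (UAP56) and the adaptor ALYREF, is loaded on capped and spliced mRNA and hands it to the export receptor. That receptor is a heterodimer of NXF1 (TAP), which binds RNA and the nuclear pore, and NXT1 (p15), its small partner, which stabilizes NXF1 and helps it bind the pore. Most mRNA leaves the nucleus by this route.

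Libraries held 32363139 to 44039467 estimated counts. Summed over its gene, Wtap gave 114, 107 and 94.3 CPM (counts scaled to library size) in WT and 114, 120 and 119 CPM in Wtap KO, so the gene total did not separate the groups; where the deleted part is not known, it does not check the labels. The transcript Wtap-205 differed: it held 51.3% ± 4.19 of the gene's counts in WT and 10.0% ± 1.10 in Wtap KO (SD, n = 3 each; limma on the share, adjusted p = 0.00393). The coding transcript Wtap-201 was higher, with 17.6 ± 1.28 TPM (WT) and 38.3 ± 2.94 TPM (Wtap KO; SD, n = 3 each; log2 fold change 1.08, edgeR, adjusted p = 0.0296), and took 33.7% ± 6.42 and 62.5% ± 3.34 of the counts. Wtap-203 had 0, 0.236 and 0 TPM in the WT libraries, 11.4, 8.31 and 9.29 TPM in the knockout ones, and did not pass (edgeR, adjusted p = 0.0615). The call on the level of Wtap-201 was lost with any library left out (adjusted p = 0.0626 to 0.179). The library Wtap KO 3 stood apart in sex-linked genes, with Kdm5d, on the Y chromosome, at 63.3 CPM (other 5 libraries, 2.43 to 3.53 CPM) and Xist at 3.81 CPM (other 5 libraries, 1980 to 4448 CPM). That is a male pattern in Wtap KO 3 and a female one in the other 5 libraries, where the labels give no sex. The Wtap KO libraries therefore did not all come from the same animal. Defining CD4 T cell markers summed to 2123 to 2214 TPM (a level per transcript length) in WT and 1970 to 2042 TPM in Wtap KO, and 2 of the 6 fell. Dendritic cell markers summed to 1.13 to 2.85 TPM in WT and 5.40 to 7.58 TPM in Wtap KO, with 1 of 5 called higher, and CD8 markers to 7.18 to 7.79 and 11.4 to 13.9 TPM, with 1 of 2 called higher. Granulocyte marker S100a9 was at 0 in all 6 libraries; the part of these differences in the results was not tested.

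The 5' end of Nxt1 is printed because Nxt1 was the member that moved. Nxt1 (ENSMUSG00000036992) lies at chr2:148672601-148676027, plus strand (GRCm38, GENCODE M21). The 250 bases before its start in RefSeq (GRCm38.p6), chr2:148672365-148672614, read as follows, with matches to 3 promoter motifs in capitals:
Nxt1 promoter: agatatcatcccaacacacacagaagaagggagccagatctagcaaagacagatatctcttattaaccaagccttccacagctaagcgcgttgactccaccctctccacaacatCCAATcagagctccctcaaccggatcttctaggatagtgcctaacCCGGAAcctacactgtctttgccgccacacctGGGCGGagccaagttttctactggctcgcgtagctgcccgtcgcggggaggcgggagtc

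Motifs were sought on both strands, and these 3 do not overlap one another here. CCAAT begins 136 bases before the start. CCGGAA, the core bound by ETS factors, begins 91 bases before it, and GGGCGG, the core bound by SP factors, 59 bases before it. Of 27025 promoters in the RefSeq table, 34.5% hold CCAAT, 12.2% CCGGAA and 32.9% GGGCGG, and 2.04% hold all 3. Among the 8 members with an entry, 3 hold CCAAT, 4 CCGGAA and 5 GGGCGG. A match describes letters and not a bound site.

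The coding transcript Nxt1-201 has 2 exons and 956 bases, of which 420 encode the protein. Of 12923 protein-coding genes tested, 8.53% had as few exons in their longest coding transcript and 6.77% had one as short or shorter; the medians were 9 exons and 2876 bases. Nxt1 is thus shorter and has fewer exons than most genes measured, whereas Nxf1-201 has 21 exons and Thoc2-201 has 39. Because WTAP is a subunit of the m6A writer, the GGACT matches in Nxt1-201, a common form of the m6A consensus, are shown with the match in capitals:
Nxt1-201 match 1: acaaacagcgGGACTtcaaccagaa
Nxt1-201 match 2: tccggttccaGGACTgggccagcta
Nxt1-201 match 3: actggatgttGGACTcccagaatcc

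The printed stretches of 25 bases around the matches lie at chr2:148675651-148675675, chr2:148675738-148675762 and chr2:148675877-148675901. Matches 1 and 2 are in the coding part. Match 3 is in the 3' UTR, where its adenosine is 126 bases past the coding end. The 3 matches make 3.14 per kb, against a median of 1.04 per kb over the protein-coding genes tested. Ddx39b-201 followed with 2.30 per kb and Thoc2-201 was lowest with 0.394 per kb. In number, however, 3 matches is also the median of the protein-coding genes tested. Nxt1-201 thus holds the median number of matches in fewer bases, 956 against a median of 2876. Thoc7-201, of 937 bases, holds 1 match, 1.07 per kb. The reason for the density of Nxt1-201 was not tested. Alyref-201, Thoc3-201, Thoc5-201 and Ddx39b-201 hold 4 matches each. Methylation at these letters was not measured in the files used here.

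Nxt1, the small partner in the export receptor, had the largest change of the 10 members. It was counted at 21.1, 20.2 and 24.1 CPM in WT and at 56.1, 62.0 and 64.2 CPM in Wtap KO. Each knockout library lay above every WT library by more than the whole spread of either group. The fitted log2 fold change was 1.48 ± 0.12 (SE, edgeR quasi-likelihood test, adjusted p = 0.00108 over 17610 genes; higher in 3 of 3 libraries). Without Wtap KO 3, the library that stood apart, it was 1.44 (adjusted p = 0.0101). In a bulk sample, more RNA per cell and more cells of a kind that holds it cannot be told apart.

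Of all genes tested 9.23% passed, 5.75% higher and 3.49% lower in Wtap KO; among the members 1 of 10 rose and 0 fell (3 had an unadjusted p under 0.05, and DESeq2 and limma on TPM called 1 each). The contrast that gave these counts is the one Nxt1 was known from, so nothing is read from the share. The median log2 fold change of the 10 was -0.19, against -0.00 over all genes, and 7 of 10 lay below 0. Groups of libraries did not overlap for 2 members that were higher in Wtap KO (17.2% of all genes) and for 3 that were lower (15.5% of all genes).

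**Figure D1:**
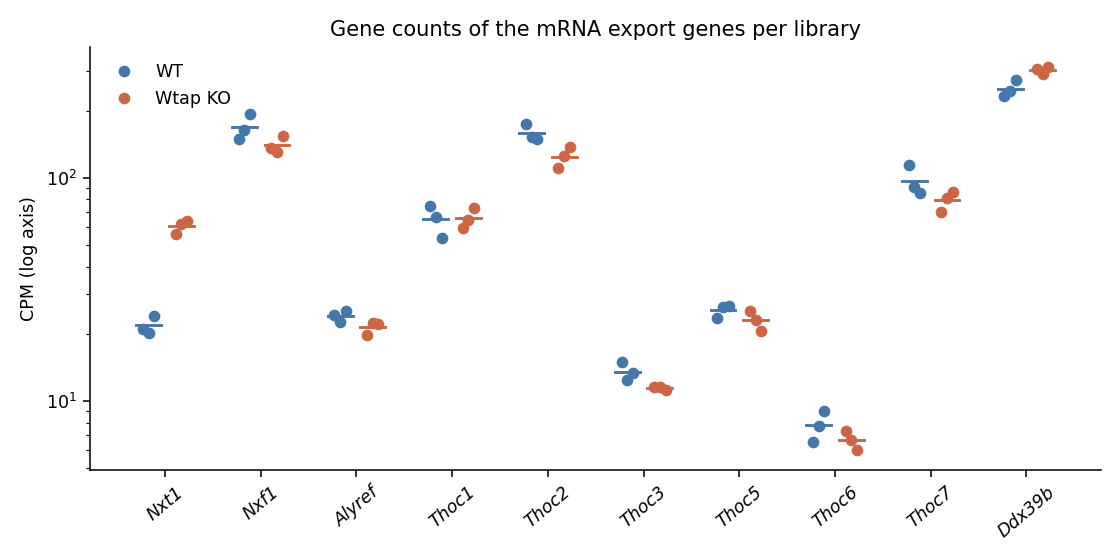
CPM (log axis) of each of the 10 export genes in the 3 WT (blue) and 3 Wtap KO (orange) libraries; each point is 1 library and bars are group means. Nxt1 moves from 20.2 to 24.1 CPM up to 56.1 to 64.2 CPM, while the groups of the other 9 genes lie side by side or overlap.

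Nxf1, the RNA-binding partner in the receptor, did not pass the test. It was at 149, 164 and 193 CPM in WT and at 136, 131 and 154 CPM in Wtap KO, and the groups overlapped because Wtap KO 3 lay above WT 1. The fitted change was -0.26 ± 0.12 on the log2 scale (SE, edgeR, adjusted p = 0.221). On the per-length scale there were 0.236, 0.203 and 0.198 Nxt1 transcripts per Nxf1 transcript in WT and 0.619, 0.732 and 0.640 in Wtap KO. The mean ratio of the 2 TPM values was 3.13 times as high in Wtap KO, and 2.96 to 3.31 times when each library was left out in turn. The groups of ratios did not overlap. Nxf1 TPM is here the sum over all its transcripts, 120 TPM on average in WT. The 21-exon coding transcript Nxf1-201 had 37.0 TPM of this, and Nxf1-208, of 505 bases, had 37.1 TPM. The ratio is therefore not a count of Nxt1 mRNA per full-length Nxf1 mRNA.

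**Figure D2:**
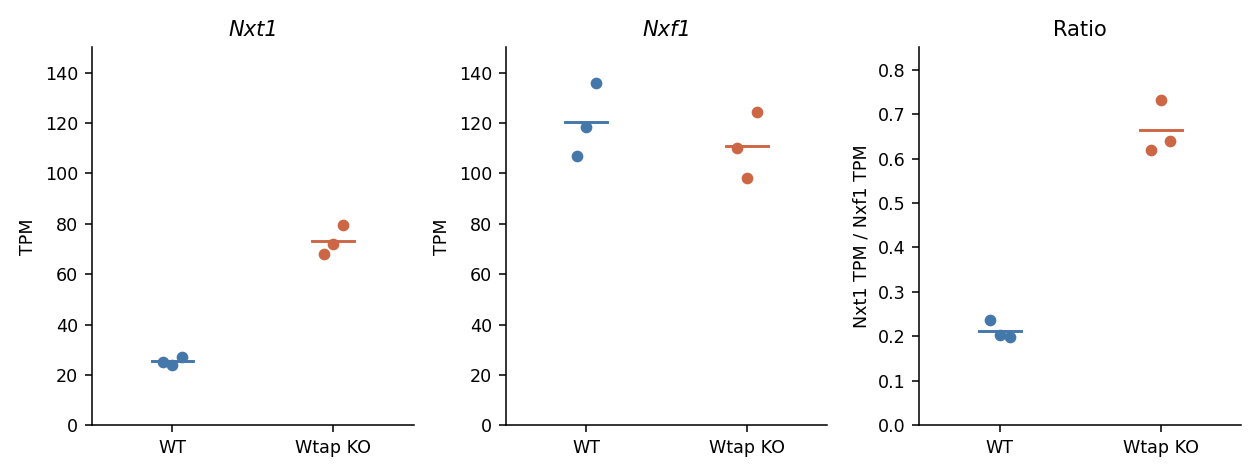
TPM of Nxt1 (left) and Nxf1 (middle) and their ratio (right) in WT and Wtap KO; points are libraries and bars are means. The ratio goes from 0.198 to 0.236 in WT to 0.619 to 0.732 in Wtap KO while the Nxf1 groups overlap.

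Alyref, the adaptor that passes mRNA from TREX to the receptor, was at 24.3, 22.5 and 25.2 CPM in WT and 19.8, 22.4 and 22.2 CPM in Wtap KO. All 3 knockout libraries lay below all 3 WT libraries, but the gap between the closest ones, WT 2 and Wtap KO 2, was small. The log2 fold change was -0.16 ± 0.12 (SE, edgeR, adjusted p = 0.433). Ddx39b, the helicase that loads the adaptors, was the second member with every knockout library above every WT one. It had 233, 244 and 273 CPM in WT and 306, 293 and 315 CPM in Wtap KO. The fitted change was 0.28 ± 0.10 on the log2 scale (SE, edgeR, adjusted p = 0.113), which did not pass.

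The THO subunits were described together, since they form 1 scaffold. Thoc2, its largest subunit, is on the X chromosome (chrX:41794991-41920674) and gave 173, 152 and 148 CPM in WT and 111, 125 and 137 CPM in Wtap KO. The groups did not overlap, and Wtap KO 3, which stood apart in sex-linked genes, was the highest of the knockout libraries. The fitted change was -0.35 ± 0.12 on the log2 scale (SE, edgeR, adjusted p = 0.0956), and -0.42 without Wtap KO 3 (adjusted p = 0.105). Thoc3, a WD-repeat subunit, was at 14.9, 12.5 and 13.3 CPM in WT and 11.6, 11.6 and 11.2 CPM in Wtap KO. These groups did not overlap either, with a log2 fold change of -0.24 ± 0.13 (SE, edgeR, adjusted p = 0.286).

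Thoc7, a coiled-coil subunit, was at 114, 91.0 and 85.4 CPM in WT, highest in WT 1, and at 69.9, 80.8 and 86.5 CPM in Wtap KO. The groups overlapped (log2 fold change -0.29 ± 0.14, SE; edgeR, adjusted p = 0.220). Thoc1, the THO subunit also called HPR1, had 74.9, 66.6 and 53.8 CPM in WT and 59.5, 64.7 and 73.3 CPM in Wtap KO. The fitted change was 0.02 ± 0.14 on the log2 scale (SE, edgeR, adjusted p = 0.963), and the sign turned when WT 3 (-0.10) or Wtap KO 3 (-0.07) was left out. Thoc5 lay between 20.6 and 26.7 CPM and Thoc6, the least abundant member, between 6.00 and 8.998 CPM over all libraries. Both groups overlapped for each, with log2 fold changes of -0.15 and -0.22 (edgeR, adjusted p = 0.5003 and 0.469). Of the 6 THO genes, 5 had a negative fold change and 0 passed in edgeR, DESeq2 or limma on TPM; 1, Thoc2, had an unadjusted p under 0.05 in edgeR.

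**Figure D3:**
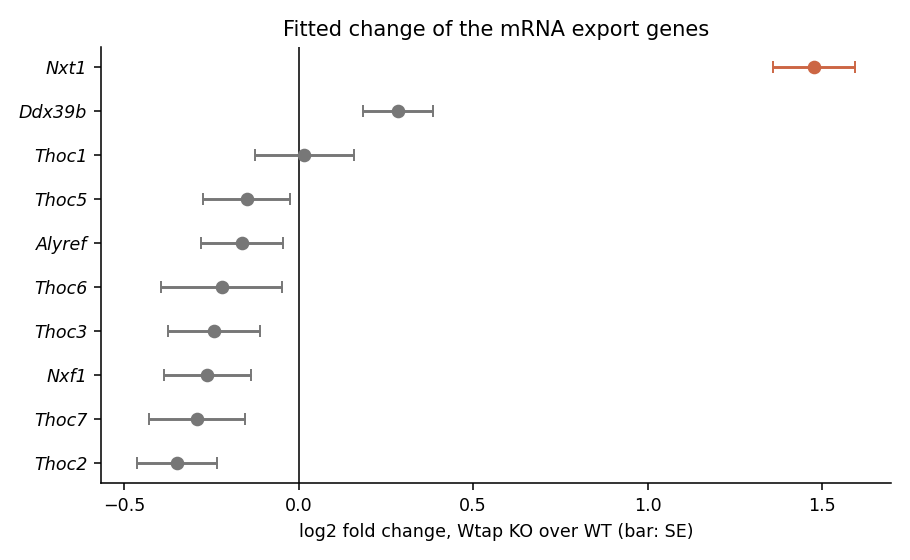
Fitted log2 fold change (Wtap KO over WT) of each export gene with its standard error, from edgeR; orange marks the gene that passed the test. Nxt1 stands at 1.48, Ddx39b at 0.28, and the other 8 between -0.35 and 0.02.

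Levels per length put the members in a wide order. In WT the means were 151 TPM for Ddx39b, 120 for Nxf1, 113 for Thoc7, 47.6 for Thoc2, 36.8 for Thoc1, 28.4 for Alyref, 25.4 for Nxt1, 12.2 for Thoc5, 7.04 for Thoc3 and 5.76 for Thoc6. Neighbours whose libraries overlapped in WT were Nxf1 and Thoc7, Alyref and Nxt1, and Thoc3 and Thoc6. In Wtap KO, Nxt1 at 73.3 TPM ± 5.90 (SD, n = 3) moved from rank 7 to rank 4. Its 3 libraries (68.1 to 79.7 TPM) then lay below those of Thoc7 (86.5 to 104 TPM) and above those of Thoc1 and Thoc2. Summed TPM of the other 9 members was 523 ± 9.80 (WT) and 529 ± 39.6 (Wtap KO; SD, n = 3 each).

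The members have 80 annotated transcripts, of which 48 passed the filter on low counts. The level of 1 of them passed the test (Nxt1-201), where 0.72% of 46935 transcripts passed overall. Nxt1-201 was at 24.3, 23.3 and 25.1 TPM in WT and at 63.6, 67.5 and 76.8 TPM in Wtap KO, a log2 fold change of 1.47 ± 0.12 (SE, edgeR, adjusted p = 0.0210). Leaving out any of the 6 libraries lifted its adjusted p to between 0.0545 and 0.164 and left at most 17 calls among all transcripts, with the fold change at 1.42 to 1.54. The second transcript, Nxt1-202, was at 1.02, 0.624 and 1.91 TPM in WT and 4.50, 4.50 and 2.92 TPM in Wtap KO. Nxt1-202 did not pass (log2 fold change 1.68 ± 0.46, SE; edgeR, adjusted p = 0.179). Nxt1-201 held 94.6% ± 2.67 of the Nxt1 counts in WT and 93.5% ± 1.88 in Wtap KO (SD, n = 3 each), a difference smaller than the spread between libraries.

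Shares of transcripts within their gene were a separate readout. None of the 48 tested shares of members passed (limma, lowest adjusted p = 0.449), 2 had an unadjusted p under 0.05, and 0.514% of 39137 shares passed over all genes. With edgeR and the gene total as offset 0 passed as well, and 6 had an unadjusted p under 0.05. At the level of transcripts, 10 transcripts of members had an unadjusted p under 0.05 in edgeR, 4 higher and 6 lower. For these counts at an unadjusted p, no share over all transcripts was computed, so nothing is read from them.

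Pairs of transcripts that differ by a retained intron are shown at the junction where they part, since these are the ones that separate mature from intron-holding mRNA. Nxf1 is known for keeping its intron 10, which holds a constitutive transport element through which NXF1 exports the unspliced form. Each line starts with the last 15 bases of the shared exon, and capitals mark what follows, either the next exon or the intron:
Nxf1-201 spliced: gtccagctatatcagCGCCATTCGCGAACG
Nxf1-209 read through: gtccagctatatcagGTCAGTTGTAGCCTC
Ddx39b-201 spliced: aagttcatgcaagatCCTATGGAGATCTTC
Ddx39b-204 read through: aagttcatgcaagatGTAAATACCCTTCTA

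Nxf1-209 keeps the whole of intron 10 (chr19:8765032-8766796, 1765 bases). It held 22.4%, 26.6% and 29.5% of Nxf1 counts in WT and 27.7%, 23.8% and 25.0% in Wtap KO. The groups overlapped fully and the difference between them was -0.04 ± 0.19 (SE, log2 ratio to the rest of the gene, limma, adjusted p = 0.954). The intron-holding form thus took 26.2% ± 3.58 of Nxf1 counts in WT and 25.5% ± 2.00 in Wtap KO (SD, n = 3 each). These shares of counts are not corrected for length, and Nxf1-209 has 4042 bases where Nxf1-201 has 2326. By TPM, the WT means were 11.0 for Nxf1-209 and 120 for the whole gene. The Wtap KO means were 9.20 for Nxf1-209 and 111 for the whole gene. The percentages are therefore not shares of Nxf1 mRNA molecules.

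Ddx39b-204 runs 801 bases from exon 6 into intron 6 (chr17:35249070-35251246). It held 16.6%, 20.6% and 21.2% of Ddx39b counts in WT and 24.8%, 22.8% and 23.5% in Wtap KO. Every knockout library was above every WT library, with a difference of 0.37 ± 0.16 (SE, log2 ratio to the rest of the gene, limma, adjusted p = 0.536), which did not pass. How many of all transcript shares separate in this way was not counted, so nothing is read from the separation. The level of Ddx39b-204 was 24.1, 31.2 and 34.5 TPM in WT and 48.8, 40.8 and 48.1 TPM in Wtap KO. The log2 fold change of 0.57 ± 0.16 (SE) did not pass in edgeR (adjusted p = 0.181) and passed in DESeq2 (adjusted p = 0.0249). DESeq2 also called Nxt1-202 (adjusted p = 0.0226) and Thoc2-203 (-0.40, adjusted p = 0.0216), and it called 3127 transcripts in all, against 338 with edgeR.

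Counts assigned to transcripts not annotated as protein coding (retained intron, nonsense-mediated decay, processed transcript) took very different parts of the members. They made up 73.5% ± 3.78 of Thoc1 counts and 57.3% ± 4.72 of Alyref counts in WT, and 5.38% ± 1.27 of Nxf1 counts, where Nxf1-209 is annotated as coding (SD, n = 3 each). Thoc1-211, a retained-intron entry, alone held 60.5% ± 1.94 of the Thoc1 counts in WT and 62.1% ± 2.07 in Wtap KO, and Alyref-202, a processed transcript, held 49.2% ± 2.38 and 54.6% ± 1.93 of Alyref (SD, n = 3 each). For these genes the gene total therefore describes coding mRNA only in part. Nxt1 has no transcript of these classes.

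For 8 members the ratio of non-coding to coding counts could be tested. The mean log2 ratio was higher in Wtap KO for 8 of 8, by 0.05 to 0.43, where the median over all genes was 0.03. For Thoc6 the difference was 0.05 ± 0.72 (SE), and its mean percentage went the other way, from 9.08% ± 8.62 in WT to 7.56% ± 2.52 in Wtap KO (SD, n = 3 each). None passed (limma, lowest adjusted p = 0.455, for Ddx39b), 1 had an unadjusted p under 0.05, and 0.354% of 7350 genes passed overall. Ddx39b went from 16.6%, 20.6% and 21.3% in WT to 25.0%, 22.8% and 23.6% in Wtap KO. Thoc6, with few counts, ranged from 3.58% to 19.0% within WT, the widest range of any member within a group.

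**Figure D4:**
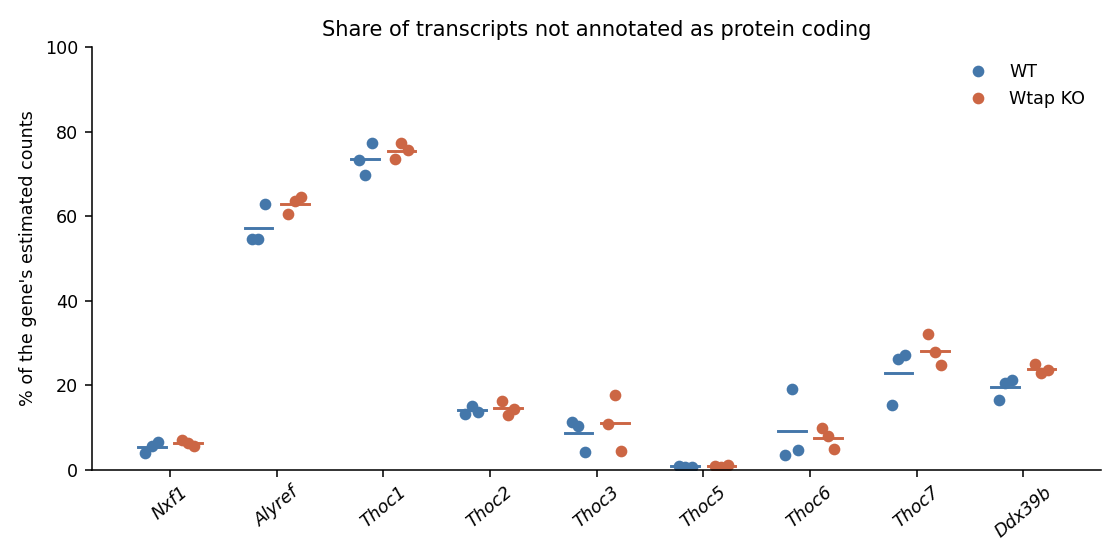
Percent of each gene's estimated counts assigned to transcripts not annotated as protein coding, per library (points) with group means (bars), WT in blue and Wtap KO in orange; Nxt1 has none and is not drawn. Thoc1 and Alyref are at 54.6% or more in every library, and Ddx39b is the only gene drawn whose groups do not overlap. How many of all genes separate on this share was not counted, so nothing is read from that.

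The rest of the pathway was read from 7 lists of export genes. They held 58 gene entries (both entries of Zc3h11a among them), and 55 were tested. Of these, 3 rose, 3 fell and 49 did not pass, where 5.75% of all genes tested rose and 3.49% fell; the counts lie near those shares and nothing is read from them. The median log2 fold change of the 55 was -0.05. None of the 9 cap-binding and exon junction genes and none of the 9 genes of the CRM1 and RAN route passed in edgeR, DESeq2 or limma on TPM; 2 of the former and 0 of the latter had an unadjusted p under 0.05 in edgeR. Over the 55 genes DESeq2 called 8 (2581 of all 17610 genes) and limma on TPM 2 (1267 of 17610).

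Nxt2, the paralog of Nxt1 that can also pair with NXF1, was lower in Wtap KO. It was at 14.8, 10.6 and 11.4 CPM in WT and 5.82, 7.55 and 7.57 CPM in Wtap KO. Nxt2 fell by 0.81 ± 0.18 on the log2 scale (SE, edgeR, adjusted p = 0.0297), and the call was lost without WT 2 (adjusted p = 0.0597) or without Wtap KO 1, 2 or 3 (0.134, 0.107 and 0.0749) and with limma on TPM (0.0611). Nxt2 is X-linked, like Thoc2. There were 5.04 ± 0.93 Nxt1 transcripts per Nxt2 transcript in WT and 24.6 ± 2.03 in Wtap KO (ratio of TPM, SD, n = 3 each). The germline paralogs were near the floor and not tested: Nxf3 had 0 counts in every library, Nxf2 had 0.0885 to 0.967 CPM, and Nxf7 at most 0.262 CPM.

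The list of further TREX subunits and adaptors had 12 gene entries tested, with Zc3h11a counted under both of its entries. Of these 12, 1 fell and 0 rose, and of the 6 TREX-2 genes, which tie transcription to the pore, 1 fell and 0 rose. The first was Zc3h11a (ENSMUSG00000102976), a zinc-finger TREX partner, from 161 ± 24.9 to 100.2 ± 11.7 CPM (SD, n = 3 each; log2 fold change -0.68, edgeR, adjusted p = 0.0225). A second gene entry with the same symbol and nearly the same span (ENSMUSG00000116275) had 47.1 ± 16.3 and 69.0 ± 23.7 CPM, and reads can be split between both, so this fall is uncertain. It was -0.23 with limma on TPM and -0.30 with an offset on gene length (adjusted p = 0.376 and 0.268), and the call was also lost without Wtap KO 1, 2 or 3 (adjusted p = 0.102, 0.0690 and 0.0702). Cetn3, a centrin of TREX-2, fell from 22.4 ± 1.90 to 13.9 ± 1.02 CPM (log2 fold change -0.69 ± 0.13, SE; edgeR, adjusted p = 0.0159). That call was lost without WT 2 (adjusted p = 0.0514) or Wtap KO 1, 2 or 3 (0.0895, 0.0692 and 0.0591).

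Among the 6 factors that bridge m6A or SR proteins to NXF1, Ythdc1 rose. Ythdc1 is the nuclear m6A reader that works with SRSF3 and NXF1 in export. It was at 107, 104 and 114 CPM in WT and 137, 136 and 155 CPM in Wtap KO (log2 fold change 0.40 ± 0.10, SE; edgeR, adjusted p = 0.0418). The make-up of the gene changed more than its total. Transcripts not annotated as coding held 59.7%, 69.7% and 67.6% of its counts in WT and 36.4%, 34.2% and 33.1% in Wtap KO (log2 ratio -1.86 ± 0.19, SE; limma, adjusted p = 0.0186). The decay-class transcript Ythdc1-208 went from 6.97 ± 0.68 to 3.38 ± 0.19 TPM, and the coding Ythdc1-203 from 9.80 ± 0.89 to 22.7 ± 1.01 TPM (SD, n = 3 each; edgeR, adjusted p = 0.0365 and 0.0280).

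The Ythdc1 gene call was lost without WT 2 (adjusted p = 0.147), without Wtap KO 1, 2 or 3 (0.118, 0.134 and 0.113), with no filter (0.0584), with limma on TPM (0.199) and with the length offset (0.330, log2 fold change 0.23). Its non-coding share stayed at -1.73 to -2.05 with any library left out, and with WT 2, WT 3 or any Wtap KO library left out the adjusted p was 0.0592 to 0.123. With decay-class transcripts counted as coding it was -0.89 (adjusted p = 0.0685). The level calls of Ythdc1-203 and Ythdc1-208 were lost with any library left out (adjusted p = 0.0617 to 0.179 and 0.0648 to 0.181).

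Of 12 factors of the pore and of mRNA release 2 rose. Nupl2, a pore protein that binds the release factor GLE1, was at 5.47, 6.91 and 4.31 CPM in WT and 13.2, 11.1 and 9.29 CPM in Wtap KO (log2 fold change 1.01 ± 0.21, SE; edgeR, adjusted p = 0.0237). Nup50, a mobile protein of the nuclear basket, had 84.2, 75.3 and 96.9 CPM in WT and 120.4, 119.2 and 119.9 CPM in Wtap KO (log2 fold change 0.49 ± 0.11, SE; edgeR, adjusted p = 0.0327). On the per-length scale Nup50 went from 23.9 ± 3.13 to 48.0 ± 1.43 TPM (SD, n = 3 each), a log2 change of 0.98 with limma on log2(TPM + 1). The Nupl2 call was lost without Wtap KO 1 or 2 (adjusted p = 0.114 and 0.0964) and with limma on TPM (0.0502). That of Nup50 was lost without WT 2 (0.118) or Wtap KO 1, 2 or 3 (0.117, 0.128 and 0.0855).

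**Figure D5:**
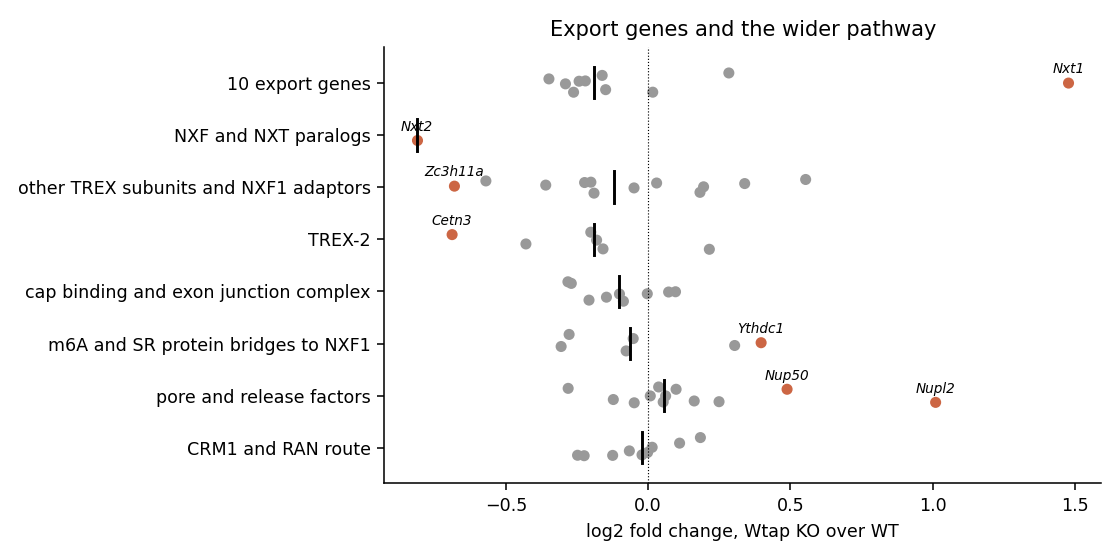
Log2 fold change (Wtap KO over WT) of the 10 export genes and of the genes tested in 7 wider lists; points are genes, orange and named where they passed the edgeR test, and black bars are list medians. Nxt1 at 1.48 lies farthest right and Nxt2 at -0.81 farthest left.

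Genes whose levels ran most like Nxt1 over the 6 libraries were found by Pearson's r of log2(CPM + 1) over the 8340 genes that averaged 10 CPM or more. They were Cbll1, a RING-type ubiquitin ligase (0.996), B430306N03Rik (0.996), Dtx3l, a ubiquitin ligase (0.995), Lats1, a Hippo pathway kinase (0.995), and Pde12, a mitochondrial phosphodiesterase (0.995). Their fitted log2 fold changes were 0.36 to 0.72, above 0 as the way they were picked requires; 4 passed the test (edgeR) and Cbll1 did not (adjusted p = 0.0518). The points share the same 6 libraries in 2 groups, and 66 genes had an r over 0.98, so the order among them describes these libraries only.

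Exons are shared with a gene on the opposite strand or with a small RNA for 4 members: Thoc1 with Usp14, Thoc6 with Bicdl2 and Hcfc1r1, Thoc7 with Gm11100, and Ddx39b with a snoRNA and a miRNA. No source used here gives the strand setting of the counting, so reads from overlapping exons cannot be told apart for Thoc1, Thoc6 and Thoc7. Nxt1, Nxf1, Alyref and Thoc3 overlap no other gene, and the pseudogene within Thoc2 and that within Thoc5 touch none of their exons.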

How the data were processed

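RNA was measured in 3 WT and 3 Wtap KO libraries (SENSE mRNA kit and 50 bp paired reads, per the labels' protocols). The authors deposited 1 table per library with an estimated count and a TPM value for each of 142647 transcripts; kallisto 0.44.0, DESeq2 and GRCm38 (mm10) are named in the submitters' processing notes. kallisto splits reads that match several transcripts, and the error of that split is not in the deposited tables. Other deposited columns (length, effective length) served only the length offset. No source used here gives the index's annotation release or the strand setting.

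Transcripts were matched by identifier to GENCODE M21 (99.15% matched; 1218 did not and were left out). Counts were summed per gene, rounded, filtered with filterByExpr, scaled by TMM and tested with edgeR 4.0.16 (quasi-likelihood) for genes and transcripts. limma 3.58.1 tested log2 ratios with 0.5 counts added, for the share of a transcript in its gene and for non-coding over coding counts. P-values were adjusted by Benjamini-Hochberg over the whole table, with a threshold of 0.05. TPM of a gene is the sum over its transcripts. Scripts were tested on simulated data. Depth was 32363139 to 44039467 estimated counts. Alternatives were DESeq2 1.42.0, other size factors, no filter, limma on log2(TPM + 1) and log2(TPM + 0.1), length and GC offsets, a replicate block and each library left out.

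The members and lists were chosen with earlier results of these data known. Named genes were the members, genes of the wider lists called at the gene level (at most 3 a list), the 5 genes most like Nxt1 and Wtap. Marker lists not described in the text were low throughout. Over all libraries, summed B cell markers reached 4.28 TPM, NK cell markers 0.499 TPM and macrophage and monocyte markers 3.51 TPM. Granulocyte markers reached 0.651 TPM and erythroid and platelet markers 8.29 TPM. Few of these genes had enough counts to be tested: 3 of 4 for B cells, 1 of 3 for NK cells and 1 of 4 for macrophages and monocytes. For granulocytes it was 0 of 3, and for erythroid cells and platelets 2 of 4. None of those tested passed, and the others were not tested.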

Additional observations from a re-analysis of the deposited data

How the results depend on the processing

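Nxt1 kept its direction and its call at the gene level under every alternative run, with log2 fold changes of 1.35 to 1.56, and it was the only member called in each. Counts of calls moved more. For genes they were 1626 as reported, 2581 with DESeq2, 1061 with the replicate block and 361 to 2282 with a library left out. For transcripts they were 338, and 3127 with DESeq2, 0 with the replicate block and 0 to 17 with a library left out. For transcript shares they were 201, and 82 with edgeR and the gene total as offset, 10 with the stricter filter, 3 with the replicate block and 92 to 218 with a library left out. For non-coding shares they were 26, and 2 with the replicate block and 7 to 18 with a library left out. The cause was not tested, beyond that fewer libraries or degrees of freedom remain in some of these fits. Of the gene calls 62.2% were higher in Wtap KO as reported, 73.8% with limma on log2(TPM + 1), 73.3% on log2(TPM + 0.1), 41.6% with the GC offset and 43.8% with the GC offset and block.

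Directions turned with a library left out for 3 results, none of which passed a test: Thoc1 (log2 fold change -0.10 to 0.13), the share of Nxt1-201 (-0.73 to 0.014) and the share of Nxf1-209 (-0.19 to 0.081). With the replicate block the level calls of Nxt1-201, Wtap-201, Ythdc1-203 and Ythdc1-208 (adjusted p = 0.3002 each) and the calls of the share of Wtap-205 (0.0857), Nxt2 (0.0643), Ythdc1 (0.0897), its non-coding share (0.142) and Nup50 (0.0633) were lost. WT and Wtap KO libraries with the same number had correlations of their deviations of -0.103, 0.05 and 0.14. Pairs with different numbers had -0.198 to 0.154. So few values cannot show whether libraries with the same number share a source, and the labels give none. For Thoc6, with 238 to 330 estimated counts a library, the non-coding share spread from 3.58% to 19.0% within WT. Other genes at that depth were not examined.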
